A study of Mus musculus with 4 samples.

Results

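The let-7 family of microRNAs (miRNAs) was compared between newborn and adult mouse lung, in room air and in high oxygen (hyperoxia). The family was taken as the assays of the deposited table that carry the miRBase names mmu-let-7a, mmu-let-7b, mmu-let-7c, mmu-let-7d, mmu-let-7e, mmu-let-7f, mmu-let-7g, mmu-let-7i and mmu-miR-98. All 9 members were found, among 750 miRNA assays in all. The 4 groups were newborn mice, less than 12 h old at the start and labelled day 3, in room air or in 95% oxygen for 72 h, and 2-month-old adults under the same 2 atmospheres for 72 h. Nursing dams changed atmosphere every 24 h. Strain, genotype and the number of animals behind a library are not stated in the labels. The whole right lung was used after its artery had been flushed. There was 1 library per group. A difference between a pair of libraries therefore has no replicates behind it and is given without a p-value.

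let-7 miRNAs are small RNAs of about the same sequence that bind messenger RNAs mainly through their seed, the bases 2 to 8 from the 5′ end. They were first known as timers of development: the RNA-binding protein LIN28 blocks their maturation in early embryos, and mature let-7 accumulates as cells differentiate. Their known targets include Hmga2, Lin28 and Ras genes, which promote growth, and in lung they are known as restraints on proliferation and tumour growth. Several genes encode the family, some as neighbours in a shared primary transcript.

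All 9 members matched a RefSeq mature sequence (GRCm38.p6), printed here to show how little separates the assays, with the seed in capitals.
mmu-let-7a: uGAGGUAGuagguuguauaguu
mmu-let-7b: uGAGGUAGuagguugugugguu
mmu-let-7c: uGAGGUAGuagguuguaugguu
mmu-let-7d: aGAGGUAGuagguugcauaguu
mmu-let-7e: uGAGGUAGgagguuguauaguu
mmu-let-7f: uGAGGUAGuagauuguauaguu
mmu-let-7g: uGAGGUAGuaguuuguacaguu
mmu-let-7i: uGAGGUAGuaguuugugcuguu
mmu-miR-98: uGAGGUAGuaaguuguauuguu

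The 9 sequences share the seed and the length of 22 bases. Counted from the 5′ end and written with the base of let-7a in front, let-7c differs from let-7a at A19G, let-7e at U9G and let-7f at G12A. let-7b differs at A17G and A19G, let-7d at U1A and U16C, let-7g at G12U and U18C, and miR-98 at G11A and A19U. let-7i differs at G12U, A17G, U18C and A19U. Of the 36 pairs of members, 4 differ by 1 base and 10 by 2. How far an assay also reads its closest relatives was not measured in these data.

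The RefSeq table places the mature sequences as follows (GRCm38.p6). The locus of let-7a, let-7f and let-7d lies on the minus strand of chromosome 13, with let-7a at chr13:48538239-48538260, let-7f at chr13:48537889-48537910 and let-7d at chr13:48536078-48536099. let-7c at chr15:85706616-85706637 and let-7b at chr15:85707325-85707346 lie within the non-coding RNA gene Lncppara. A further copy of let-7c lies at chr16:77599672-77599693 between Mir99a and Mir125b-2. let-7e lies at chr17:17830366-17830387 within Spaca6, between Mir99b and Mir125a. A further copy of let-7f at chrX:151912353-151912374 and miR-98 at chrX:151913229-151913250 lie within Huwe1, a ubiquitin ligase gene. let-7g at chr9:106178846-106178867 lies within Wdr82, and let-7i at chr10:122985698-122985719 has no miRNA gene within 50 kb. The hairpin Mirlet7a-2 lies on chromosome 9 within Mir100hg, beside Mir100 and Mir125b-1. Because let-7a, let-7c and let-7f each come from more than 1 locus, their assays read the sum of these loci.

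Levels are given as the threshold cycle (Ct) of the small nucleolar RNA snoRNA202 on the same 384-well card minus the Ct of the assay. This is a log2 scale that rises with RNA, on which 1 unit is 2-fold at perfect amplification. An assay counted as detected at a Ct of 35 or below. In the 4 libraries 468 to 507 of the 750 assays were detected, 426 of them in all 4, with a median detected Ct of 24.0 to 24.2. All 9 members sit on card 1 and were detected in all 4 libraries, so no member was lost to the filter. miRNAs used as markers of lung cells were present. miR-126-5p (endothelium) had a Ct of 12.3 to 14.2, and the 5 miR-200 family members (epithelium), miR-143 and miR-145 (smooth muscle) and 4 leukocyte miRNAs were detected in all 4. The liver miRNA miR-122 crossed at 36.0 cycles in the neonatal room air library and between 27.6 and 32.8 in the other 3. Of 2 brain miRNAs 1 was detected in all 4, and miR-126-3p could not be matched to an assay.

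The error of a difference was taken from 4 control RNAs read on both cards (U6, snoRNA135, U87 and Y1), as the root mean square disagreement of the 2 cards, scaled to a single card. This technical SD was 0.65 log2 for adult against neonatal lung in room air, 0.95 for the same in hyperoxia, 0.26 for hyperoxia against room air in the neonate and 0.33 in the adult. Its 2 age values rest largely on U6, whose cards disagreed by 1.52 log2 in room air and 2.32 in hyperoxia. The other control RNAs disagreed by at most 0.80 and 1.07. The technical SD leaves out variation between animals. Where members beyond this SD are counted, the share of all assays beyond it is not given, so such a count does not set the members apart. The p-values given further on come from a model over all 4 libraries, without replicates. Their spread is what remains once age and oxygen are fitted as separate terms, pooled in part over assays. For an assay this remainder is how far its oxygen difference varied between the ages. It may be partly technical, and it speaks for these samples alone.

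The family spanned a wide range of levels, from let-7e, near the most abundant miRNAs of the card, to miR-98. let-7e stood at -1.76 log2 against snoRNA202 in the neonatal library from room air and at -1.61 in that from hyperoxia, and at -2.24 and -3.40 in the adult libraries. With snoRNA202, both neonatal libraries were higher than both adult libraries for let-7e. With U6 as the reference its adult minus neonatal differences were above 0 instead, at 2.17 in room air and 1.18 in hyperoxia. Here and below, the share of all assays whose libraries separate by age is not given. By Ct it ranked 20th to 35th among the 255 to 283 miRNAs detected on card 1. let-7c, encoded beside miR-99a and beside let-7b, stood at -3.15, -3.26, -2.59 and -3.33 in this order of libraries, which is kept hereafter, and only the adult room air library was apart from the rest. let-7i varied least, at -3.41, -3.43, -3.21 and -3.31.

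let-7g, encoded within Wdr82, stood at -3.90, -3.56, -3.09 and -3.98 log2, with the adult room air library the highest. let-7d stood at -3.71, -3.39, -3.98 and -4.45, with both neonatal libraries above both adult libraries. let-7b stood at -4.68, -4.43, -4.11 and -4.28, the reverse arrangement. For let-7b the adult libraries were the higher ones, without overlap. Its age differences, 0.57 in room air and 0.15 in hyperoxia, were within the technical SDs of 0.65 and 0.95. The share of all assays that separate by age in this way is not given.

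The other 3 members were lower. let-7a, the member whose sequence is identical from worm to human, stood at -6.18, -5.85, -6.04 and -6.83 log2. let-7f stood at -7.71, -6.93, -7.72 and -8.67, and for both let-7a and let-7f the neonatal hyperoxia library was the highest and the adult hyperoxia library the lowest. miR-98 stood at -11.78, -11.05, -12.92 and -14.02, with both adult libraries below both neonatal ones. Its Ct of 24.6 to 26.9 is the latest in the family and well inside the detected range.

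Ordered by mean level over the 4 libraries, the family ran let-7e, let-7c, let-7i, let-7g, let-7d, let-7b, let-7a, let-7f, miR-98. Only the last 3 steps held in all 4 libraries. let-7b exceeded let-7a by 1.42 to 2.55 log2, let-7a exceeded let-7f by 1.08 to 1.84, and let-7f exceeded miR-98 by 4.07 to 5.34. Each of the first 5 steps was reversed in at least 1 library, so the order from let-7e to let-7b is not settled between neighbours. A level is read by its own primers, whose efficiency was not measured, so these gaps compare assays and not molecule numbers.

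**Figure D1:**
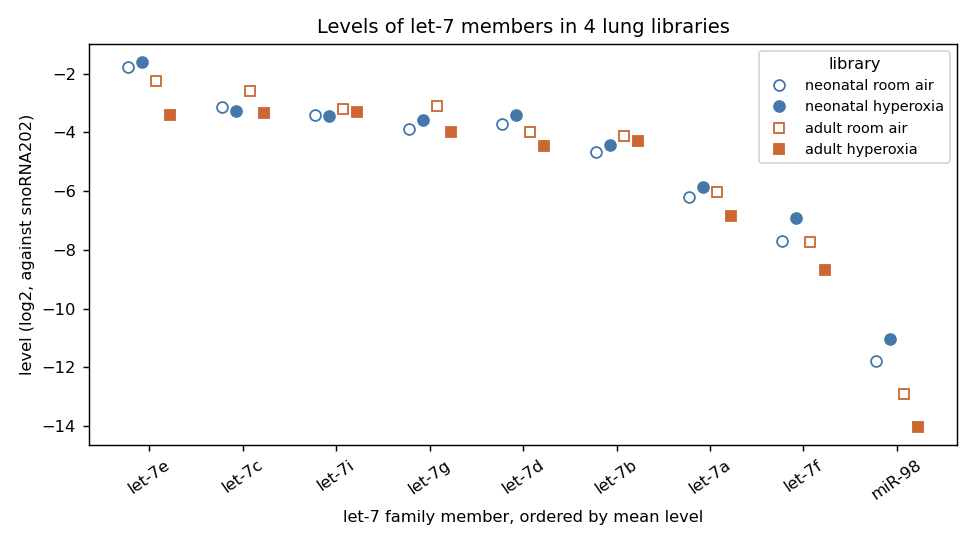
Level of each let-7 member (log2 against snoRNA202 of card 1; vertical axis) in the 4 libraries, with members ordered by mean level. Circles are neonatal and squares adult; open symbols are room air and filled symbols hyperoxia. let-7i stays between -3.43 and -3.21, while miR-98 ranges from -11.05 to -14.02.

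In room air the members differed in direction between newborn and adult lung. let-7g was 0.81 log2 higher in the adult library (1.76-fold), let-7b 0.57, let-7c 0.56, let-7i 0.20 and let-7a 0.15. miR-98 was lower in the adult (2.20-fold), a difference of -1.14, and let-7e was at -0.48, let-7d at -0.27 and let-7f at -0.01. Only let-7g and miR-98 differed by more than the technical SD of 0.65. At 2-fold, 0 of 9 members were higher, against 16.6% of the 435 assays compared, and 1 of 9 (miR-98) was lower, against 43.0%. The family median was 0.15 log2, while the median over all assays was -0.57 and that over the assays of card 1 was -0.39. Relative to card 1, 7 of 9 members lay above the median assay.

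In hyperoxia the adult library held less of most members than the neonatal library. miR-98 was at -2.97 log2 (7.81-fold lower), let-7e at -1.80 (3.47-fold), let-7f at -1.75 (3.36-fold) and let-7d at -1.06 (2.09-fold). These and let-7a, at -0.98, exceeded the technical SD of 0.95. let-7g was at -0.42 and let-7c at -0.07, whereas let-7b was at 0.15 and let-7i at 0.13. Thus 4 of 9 members were at least 2-fold lower, against 49.3% of 450 assays, and 0 of 9 were 2-fold higher, against 10.9%. The family median of -0.98 was that of all assays, also -0.98. Adult minus neonatal medians in room air and hyperoxia were 0.50 and -0.90 for the epithelial markers and 0.98 and 0.25 for leukocytes. For smooth muscle they were 0.96 and 0.56, and for the 3 erythroid miRNAs -1.03 and -0.79. Some lists held both signs, among them the epithelial list in room air (-1.16 to 0.84) and the erythroid list in hyperoxia (-0.80 to 0.90). The part of the marker miRNAs in the let-7 values was not tested. In bulk lung, fewer cells of a type and less RNA per cell cannot be told apart.

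The sizes of these age differences moved with the reference RNA, and so did the direction of 4 of 9 members in room air (let-7d, let-7e, let-7f and miR-98) and of 7 of 9 in hyperoxia (all but let-7b and let-7i). U6, the control with the earliest Ct, itself differed between adult and neonate in room air, by -2.65 log2 against snoRNA202 on card 1 and by -1.12 on card 2. With U6 as the reference the family median became 2.79 in room air and 2.00 in hyperoxia. Over the 7 references tried, the room air median ranged from 0.15 to 2.79 and was above 0 under each. The 7 are not independent. For the members the deposited delta Ct gives the same values as snoRNA202 of the own card. The mean of snoRNA135 and snoRNA202 and that of the 5 control RNAs include snoRNA202 too. The hyperoxia median ranged from -0.98 to 2.00 and was above 0 under 3 of 7. let-7a, let-7b, let-7c, let-7g and let-7i were above 0 in room air under all 7, and let-7b and let-7i in hyperoxia as well. miR-98 in room air was at -1.14 with snoRNA202 and at 1.51 with U6.

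To test age over all 4 libraries, limma was fitted to the 426 assays with age and oxygen as separate terms (Benjamini-Hochberg adjustment, threshold 0.05). This model holds the oxygen term equal at both ages and has 1 residual degree of freedom per assay. An oxygen difference that varies between the ages therefore widens the SE. Of the 9 members 0 rose and 0 fell with age, against 5.63% of assays that rose (24) and 30.0% that fell (128). At an unadjusted p under 0.05 there was 1 member, miR-98, and 218 assays. miR-98 was at -2.05 ± 0.59 log2 (SE; limma, adjusted p = 0.0793) and was lower in both adult libraries. let-7e was at -1.14 ± 0.47 (limma, adjusted p = 0.153), let-7f at -0.88 ± 0.57 and let-7b at 0.36 ± 0.32. With U6 as the reference 8 of 9 members rose, all but miR-98, against 46.0% of assays. With each card centred on its median let-7b, let-7c, let-7g and let-7i rose, 4 of 9, against 31.9%. Each of the other 4 references gave 0 calls among the members.

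**Figure D2:**
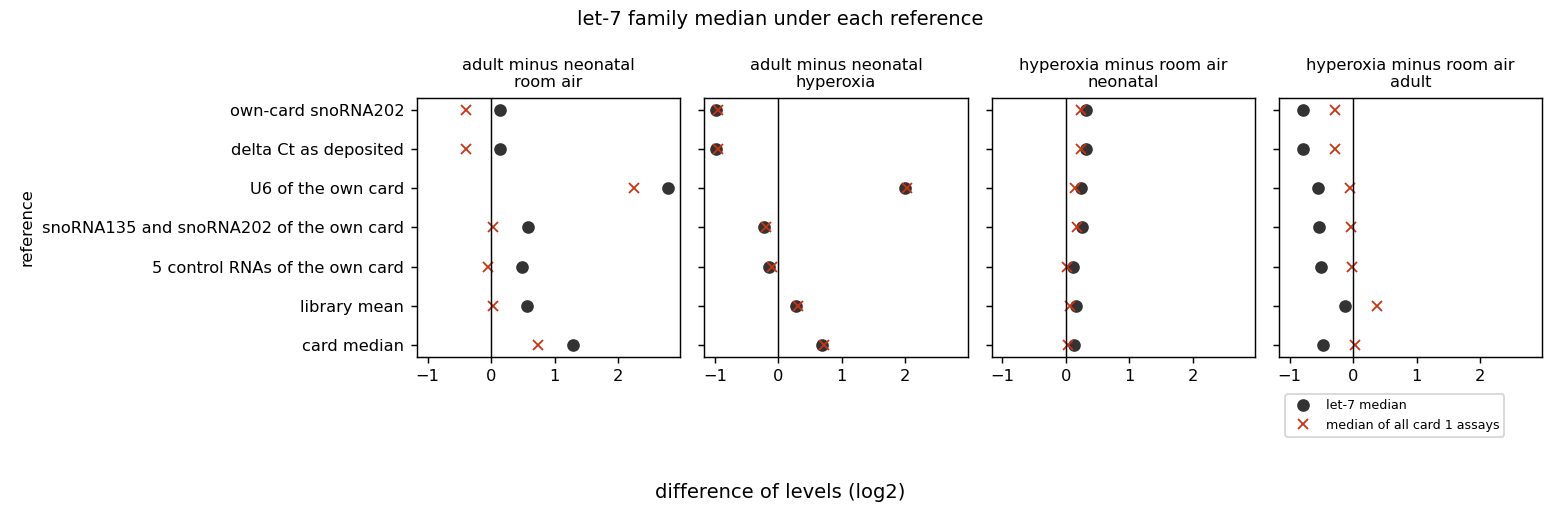
Median difference of the 9 let-7 members (dots) and median of all card 1 assays (crosses), in log2 on the horizontal axis, for the 4 comparisons under each of 7 references. In room air the let-7 median lies 0.54 above the card 1 median. This gap cannot vary with the reference, because a change of reference shifts the members and the other card 1 assays together.

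In the neonatal lung, 7 of 9 members were slightly higher after hyperoxia, 6 of them under each of the 7 references. With snoRNA202, 58.6% of all assays and 69.3% of those on card 1 were higher as well. let-7f was 0.78 log2 higher after hyperoxia (1.72-fold), miR-98 0.73 (1.66-fold), let-7g 0.33, let-7a 0.33, let-7d 0.32, let-7b 0.25 and let-7e 0.15. let-7c was at -0.11 and let-7i at -0.03. The first 5 of these exceeded the technical SD of 0.26. At 2-fold, 0 of 9 were higher, against 13.6% of 469 assays, and 0 of 9 lower, against 8.53%. The family median of 0.32 compares with 0.13 over all assays and 0.24 over card 1. All 9 members had an earlier Ct in the hyperoxia library, and so had snoRNA202, by 0.524 cycles. The median was above 0 under all 7 references, from 0.11 to 0.32. let-7a, let-7b, let-7d, let-7f, let-7g and miR-98 were above 0 under each of them, and let-7c and let-7i below 0 under each.

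In the adult lung all 9 members were lower after hyperoxia with snoRNA202 as the reference, and 6 of 9 under each of the 7 references tried. With snoRNA202, 71.4% of all assays compared were lower. let-7e was at -1.16 log2 (2.24-fold lower), miR-98 at -1.10 (2.14-fold), let-7f at -0.95 (1.94-fold), let-7g at -0.90 (1.86-fold), let-7a at -0.80 (1.74-fold), let-7c at -0.74 (1.67-fold) and let-7d at -0.48. These 7 exceeded the technical SD of 0.33, and let-7b at -0.17 and let-7i at -0.10 did not. At 2-fold, 2 of 9 were lower (let-7e and miR-98), against 8.26% of 448 assays, and 0 of 9 higher, against 3.79%. The family median of -0.80 compares with -0.24 over all assays and -0.29 over card 1, where 2 of 9 members lay above the median assay.

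The reference differed too. snoRNA202 of card 1 crossed 0.594 cycles earlier in the adult hyperoxia library than in adult room air, while the member Ct values were later for 6 of 9 and earlier for let-7b, let-7d and let-7i. Under the 7 references the adult median ranged from -0.80 to -0.13 and was below 0 under each. let-7a, let-7c, let-7e, let-7f, let-7g and miR-98 were below 0 under all 7. The 2-fold count was 2 with snoRNA202 and with the deposited delta Ct, and 0 with the other 5 references. In row A of card 1, where let-7b, let-7c, let-7d, let-7e, let-7g and let-7i occupy the first 6 wells, the other 14 assays compared were also all lower in the adult hyperoxia library, with a median of -0.39. Whether well position had a part in the result was not tested. The leukocyte miRNAs differed by a median of 0.39 in the neonate and -0.39 in the adult, the epithelial miRNAs by 0.73 and -0.51 and the erythroid miRNAs by -0.69 and -0.32, and their part in the let-7 values was not tested.

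**Figure D3:**
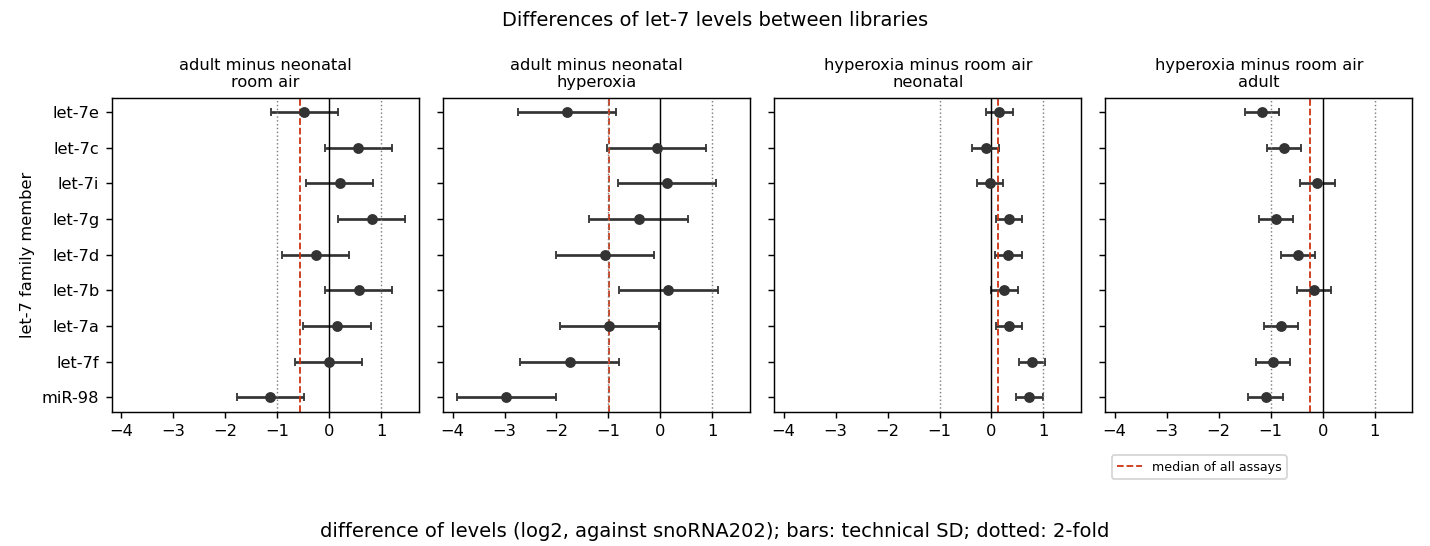
Difference of level (log2 against snoRNA202, horizontal axis) of each let-7 member for the 4 comparisons. Bars are the technical SD of the comparison, dotted lines mark 2-fold and the dashed red line is the median of all assays. In the adult hyperoxia panel all 9 points lie left of 0, from -1.16 to -0.10.

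The oxygen differences of the 2 ages thus pointed in opposite directions for most members. 7 of 9 members were above 0 in the neonate and below 0 in the adult, as were 41.5% of the 426 assays and 52.5% of the 236 on card 1. The adult difference minus the neonatal difference was -1.83 log2 for miR-98, -1.74 for let-7f, -1.32 for let-7e, -1.23 for let-7g and -1.13 for let-7a. It was -0.80 for let-7d, -0.63 for let-7c, -0.41 for let-7b and -0.08 for let-7i. On this quantity 5 of 9 members were at least 1 log2 lower, against 21.4% of assays, and the family median was -1.13 against -0.32 over all assays and -0.48 over card 1. Its technical SD was 0.53, exceeded by 7 of 9. The median was below 0 under all 7 references, from -1.13 to -0.29, and let-7a, let-7e, let-7f, let-7g and miR-98 were below 0 under each. With 1 library a group this difference between ages has no test. In the additive limma fit, which averages the 2 ages, 0 of 9 members and 0 of 426 assays (0%) were called for oxygen, with 0 members and 13 assays at an unadjusted p under 0.05.

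Since all 9 assays share card 1, the ratio of 2 members within a library does not depend on any reference. Here the family median of a library is the median level of its 9 members, not the median of the differences given above. Set against it, let-7b gained 0.64 log2 from newborn to adult in room air and 0.87 in hyperoxia. let-7c gained 0.64 and 0.64, let-7i 0.28 and 0.84, and let-7g 0.89 and 0.30. These 4 were above 0 in both atmospheres. miR-98 lost share, at -1.06 in room air and -2.25 in hyperoxia, as did let-7e at -0.40 and -1.08 and let-7d at -0.19 and -0.35. let-7a (0.23 and -0.27) and let-7f (0.07 and -1.03) changed sign on this scale. These sign changes rest on the centre. The median of the differences was that of let-7a in both atmospheres (0.15 and -0.98), and against let-7a, let-7f was at -0.16 and -0.77. Only miR-98 lay beyond the technical SD in both atmospheres (0.65 in room air and 0.95 in hyperoxia). let-7b, let-7c and let-7i lay within it in both. The 2 pairs of libraries share no library, but each group has 1 library, so a difference in makeup with age was not tested.

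The ratio with the widest range over the libraries was that of miR-98 over let-7b, at -7.11, -6.62, -8.81 and -9.74 log2, lower in both adult libraries. Among the abundant members let-7e lost ground to let-7b and let-7i. The log2 ratio of let-7b over let-7e was -2.92, -2.83, -1.87 and -0.88. For let-7i over let-7e it was -1.65, -1.83, -0.97 and 0.10. In both, the neonatal libraries were alike, the adult room air library was higher and the adult hyperoxia library highest. The 4 members that gained share in both pairs differ from let-7a at 1 or more of the bases 17 to 19, as their sequences above show, whereas let-7a, let-7d, let-7e and let-7f match let-7a there. miR-98 differs at base 19 and lost most. This grouping was made after the values were seen, and is a description.

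Within the family, the members' oxygen differences ranged over 0.89 log2 in the neonate and 1.06 in the adult, which needs no centre. Their root mean square about the change of the family's median level was 0.28 log2 in the neonate and 0.55 in the adult. For age it was 0.58 in room air and 1.03 in hyperoxia. In the adult the median level went from -3.98 to -4.28, a smaller change than the median of the members' differences, -0.80. The larger adult root mean square therefore comes in part from the centre. In the neonate let-7f (0.45) and miR-98 (0.40) gained on the median while let-7c (-0.45) and let-7i (-0.36) lost. In the adult let-7i (0.20) and let-7b (0.13) gained and let-7e (-0.86), miR-98 (-0.80) and let-7f (-0.65) lost. The difference between ages in this spread was not tested.

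**Figure D4:**
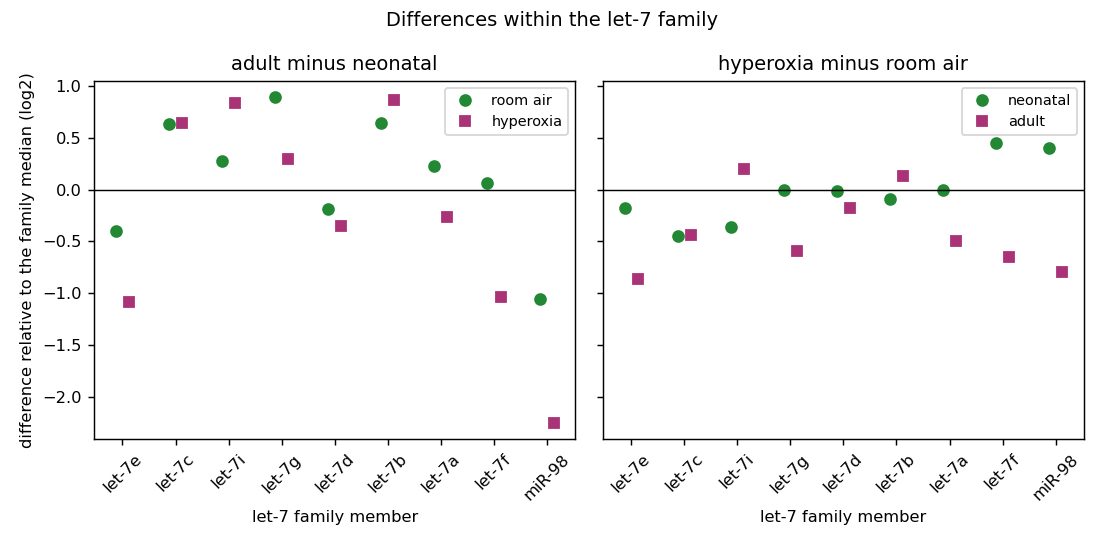
Differences relative to the median level of the family in each library (log2, vertical axis) for each let-7 member, by age (left; circles room air, squares hyperoxia) and by oxygen (right; circles neonatal, squares adult). For age, let-7b, let-7c, let-7i and let-7g lie above 0 in both atmospheres and miR-98 lies lowest, at -1.06 and -2.25.

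Neighbours on the genome differed in how steady their ratio was. On chromosome X, miR-98 was lower against let-7f in the adult, with a log2 ratio of -4.07 and -4.13 in neonatal room air and hyperoxia and -5.20 and -5.34 in the adult libraries. The neonatal and adult values were 1.13 and 1.22 log2 apart in the 2 atmospheres. let-7b and let-7c, neighbours on chromosome 15, had a ratio of -1.53, -1.17, -1.52 and -0.95. let-7d over let-7a, neighbours on chromosome 13, was 2.47, 2.46, 2.06 and 2.38, while let-7f over let-7a, of the same locus, was -1.53, -1.08, -1.69 and -1.84. let-7a, let-7c and let-7f also come from other loci, so these ratios mix transcripts.

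The other miRNAs made from let-7 transcripts are miR-99a, miR-99b and miR-100, which share a seed, and miR-125a-5p and miR-125b-5p, relatives of lin-4, the other founding timer miRNA of worm development. Their RefSeq sequences, with the seed in capitals, are shown for the 3 that rose with age. Their seeds differ from that of let-7 at 7 bases (miR-99a, miR-100) or 5 (miR-125b-5p).
mmu-miR-99a-5p: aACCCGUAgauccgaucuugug
mmu-miR-100-5p: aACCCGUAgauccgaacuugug
mmu-miR-125b-5p: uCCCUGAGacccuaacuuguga

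Of these 5 guide strands, 3 rose and 0 fell with age in the limma fit, against 5.63% and 30.0% of all 426 assays. miR-99a stood at -6.70, -6.83, -5.23 and -5.14 log2, with no overlap between ages, and rose by 1.58 ± 0.30 (SE; limma, adjusted p = 0.0397). miR-100 stood at -6.54, -6.38, -4.38 and -5.06 and rose by 1.74 ± 0.38 (limma, adjusted p = 0.0480; 0.0608 with the deposited delta Ct). miR-125b-5p stood at -4.89, -5.02, -3.06 and -3.41 and rose by 1.72 ± 0.30 (limma, adjusted p = 0.0347). When all 750 assays were fitted, with a Ct of 40 for no crossing, none of the 3 passed (limma, adjusted p = 0.105, 0.132 and 0.0949). miR-125a-5p was at -2.02 ± 0.50 (limma, adjusted p = 0.0605) and miR-99b at -0.25 ± 0.30. Of their 6 passenger strand assays 1 fell, a share below the 30.0% of all assays. This was miR-99b*, which fell by 2.30 ± 0.30 (limma, adjusted p = 0.0195), or 0.0932 with the library mean as reference and 0.0641 over all 750 assays. At 2-fold in room air 3 of 5 guides were higher and 1 lower, against 16.6% and 43.0% of assays. In hyperoxia the counts were the same, against 10.9% and 49.3%.

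On ratios free of the reference, these 3 neighbours were higher against their let-7 members in both adult libraries. The log2 ratio of miR-100 over let-7a was 2.01 higher in the adult than in the neonate in room air and 2.31 in hyperoxia. That of miR-99a over let-7c was 0.91 and 1.76 higher, and that of miR-125b-5p over let-7c 1.27 and 1.68 higher. At the let-7e locus on chromosome 17, miR-99b over let-7e was 0.35 and 1.43 higher, while miR-125a-5p over let-7e was lower, at -0.83 and -0.94. After hyperoxia miR-125a-5p was 1.21 log2 higher in the neonate and at -0.21 in the adult.

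**Figure D5:**
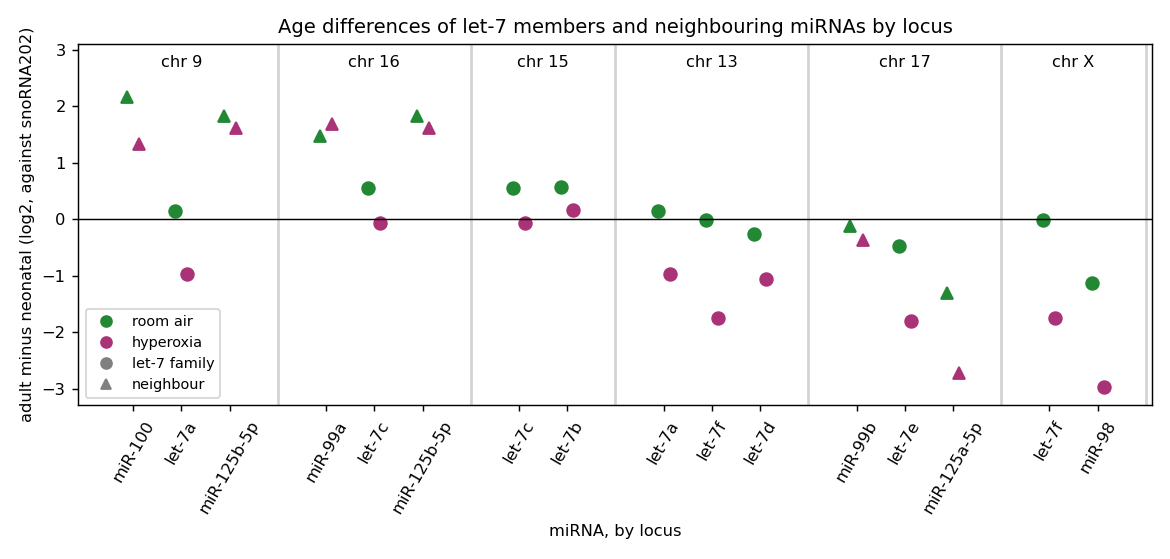
Adult minus neonatal difference (log2 against snoRNA202, vertical axis) of let-7 members (circles) and neighbouring miRNAs (triangles), grouped by locus, in room air (green) and hyperoxia (purple); members with several loci appear at each. On chromosomes 9 and 16 the neighbours lie between 1.32 and 2.15, above the let-7 member of the locus.

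The passenger strands of the let-7 hairpins, the arms usually degraded, were read by 8 assays of card 2, and 6 of these were detected in all 4 libraries. let-7b* and let-7f* crossed no threshold in any library. The strands of let-7g and let-7i are printed because they carried the age differences. RefSeq names them as the 3p arms.
mmu-let-7g-3p: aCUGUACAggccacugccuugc
mmu-let-7i-3p: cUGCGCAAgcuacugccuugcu

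let-7g* stood at -15.93, -17.67, -13.10 and -13.69 log2. Both adult libraries were higher, and let-7g* rose with age by 3.40 ± 0.44 (SE; limma, adjusted p = 0.0195). Its neonatal Ct values of 31.2 and 32.3 were late. let-7i* stood at -13.15, -13.34, -11.71 and -11.55 and rose by 1.61 ± 0.31 (limma, adjusted p = 0.0401; 0.0598 with the deposited delta Ct). Their guide strands let-7g and let-7i were at 0.20 ± 0.46 and 0.16 ± 0.30 in the same fit (limma, adjusted p = 0.745 and 0.686). Guides were read on card 1 and passengers on card 2, so setting a guide against its passenger depends on the reference of each card. With U6 the fitted age differences were 3.01 for let-7g and 4.29 for let-7g*, and 2.98 for let-7i and 2.50 for let-7i*. With card medians they were 1.60 and 4.35, and 1.57 and 2.56. With snoRNA202 the guide exceeded the passenger by 12.03 and 14.10 log2 for let-7g in neonatal room air and hyperoxia, and by 10.02 and 9.71 in the adult libraries. With no filter on Ct neither passed (limma, adjusted p = 0.0784 and 0.109).

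The other detected passenger strands gave no call. let-7a* stood at -10.25, -10.37, -10.18 and -10.46, nearly level across all 4 libraries. let-7c-1* was at -0.96 ± 0.31 for age (limma, adjusted p = 0.0934) and the rat-named let-7e* at 0.12 ± 0.42. let-7d* stood apart in 1 library: its Ct was 28.4 in neonatal hyperoxia and lay between 32.8 and 34.7 in the other 3. Its guide let-7d did not show this, at 0.32 log2 for neonatal hyperoxia against 5.58 for let-7d*.

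Another assayed miRNA shares the full seed: miR-1961, which is 17 bases long in RefSeq. miR-202-3p differs from the seed at G8U, counted as above.
mmu-miR-1961: uGAGGUAGuaguuagaa
mmu-miR-202-3p: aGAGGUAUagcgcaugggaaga

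miR-1961, read on card 2, had a nearly constant Ct of 28.9, 28.8, 28.6 and 28.5, which on the snoRNA202 scale is -13.57, -14.24, -14.99 and -14.76 log2. miR-202-3p was detected late, at a Ct of 32.3 to 33.3 in 3 libraries and 35.5 in neonatal room air.

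In 382 other miRNA assays, each crossing by cycle 32 in every library, the pattern nearest to the family median was that of miR-361, at a root mean square distance of 0.015 log2 over the 4 libraries after centring. It was followed by miR-500 (0.091), miR-93 (0.10), miR-141 (0.10) and miR-151-3p (0.11), all on card 1. Members themselves lay farther from their own median, from 0.15 for let-7d to 0.89 for miR-98, and 15 to 254 of the 382 assays lay nearer to it than a given member did. With 4 libraries that share a reference this is a description only.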

How the data were processed

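Mouse lung RNA was read with TaqMan miRNA assays on 2 cards of 384 wells in 4 libraries, 1 per group, after Megaplex reverse transcription and preamplification, per the labels' protocols. The authors deposited threshold cycles (Ct) and Ct minus that of snoRNA202, per the file headers. Both deposited columns are log2 values, made by the authors from amplification curves, and a lower value means more RNA. No source used here names the software or its threshold. A Ct of 40 stands for no crossing. Ct values are identical in both tables. Depth in reads does not exist for this assay. In the adult room air library the deposited delta Ct of 385 wells uses the other card's snoRNA202, 1 of them on card 1 and not a member's, so levels were recomputed here against the own card.

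A comparison took the assays detected (Ct up to 35) on both sides, 2-fold being 1 log2 unit. limma 3.58.1 (R 4.3.3, lmFit and eBayes) fitted age and oxygen over all 426 assays. A run on simulated data used equal noise for all assays and no oxygen difference that varied with age. It therefore does not test the p-values given here. Named were all members, their passenger strands, seed relatives, miRNAs of the same transcripts and the 5 nearest patterns. The members, lists, tests and alternatives were chosen with earlier results of these data known. miR-125b-5p is listed by the file as mmu-miR-125 and was named by its assay. Alternatives were 6 other references, Ct limits of 32 and none, a trended prior and other centres of the family.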

Additional observations from a re-analysis of the deposited data

Results flagged for a closer look

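With 1 library per group, a contrast that points one way in one group and the other way in the second can be noted but was not tested. For oxygen, the adult difference minus the neonatal one, with opposite signs at the 2 ages, was -1.13 log2 for let-7a, -0.41 for let-7b, -0.80 for let-7d, -1.32 for let-7e, -1.74 for let-7f, -1.23 for let-7g and -1.83 for miR-98. Among passenger strands it was -6.18 for let-7d*, -1.04 for rat-named let-7e* and 0.35 for let-7i*. Among neighbours and relatives it was 0.22 for miR-99a, -0.24 for miR-99b, -0.83 for miR-100, -1.42 for miR-125a-5p, -0.77 for miR-125a-3p and 0.90 for miR-1961. For age, the hyperoxia difference minus the room air one, again with opposite signs, was -1.13 for let-7a, -0.63 for let-7c, -1.23 for let-7g, -0.17 for let-7a*, -6.18 for let-7d*, -1.04 for rat-named let-7e*, -1.33 for miR-125b* and -1.30 for rat-named miR-125b*. The 2 sets of values are the same quantity where a miRNA appears in both. Of the 16 oxygen values 8 had both sides beyond the technical SD of their comparison (let-7a, let-7d, let-7f, let-7g, miR-98, let-7d*, rat-named let-7e* and miR-125a-3p), and of the 8 age values 0 did. The neonatal side of let-7e, 0.15, turned below 0 with the 5 control RNAs, the library mean and card medians. The let-7d* values rest on its Ct of 28.4 in neonatal hyperoxia.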

How the results depend on the processing

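The limits are 1 library per group, a technical SD from 4 control RNAs, primer efficiencies that were not measured, and references that disagree over age. No paired analysis was possible because each group has 1 library and the labels give no replicate numbers. Of 90 alternative values of the family summaries 68 counted as the same, 12 moved, 8 reversed and 2 became calls. A median or spread counted as the same if it shifted by less than the technical SD, and a count if it changed little. The hyperoxia age median of -0.98 so counted as the same at -0.235 with both snoRNAs and -0.14 with the 5 control RNAs. Pairwise summaries could not change with the deposited delta Ct or the Ct limits, where the members' values are identical. The family median for age in room air moved from 0.15 to 2.79 with U6 and 1.29 with card medians. In hyperoxia it moved from -0.98 to 2.00 with U6, 0.27 with the library mean and 0.68 with card medians. The adult oxygen median moved to -0.13 with the library mean. For the 2-fold count in room air, 1 lower became 9 higher with U6, 6 higher with card medians, and 1 higher with snoRNA135 and snoRNA202, with the 5 control RNAs or with the library mean. For age in hyperoxia, 4 lower became 8 higher with U6, 1 lower with the 5 control RNAs, 3 higher and 1 lower (4 in all) with the library mean, and 4 higher and 1 lower (5 in all) with card medians. For adult oxygen, 2 lower became 0 with U6, with both snoRNAs, with the 5 control RNAs, with the library mean and with card medians. Calls for age went from 0 to 8 with U6 and 4 with card medians, and stayed at 0 under the other settings.

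Age differences below 0 with snoRNA202 also turned above 0 in single members. With U6 this held for 4 members in room air (let-7d, let-7e, let-7f and miR-98) and 7 in hyperoxia (all but let-7b and let-7i), with card medians for the same 4 in room air and for let-7a, let-7c, let-7d and let-7g in hyperoxia, and with the library mean for let-7d and let-7f in room air and for these 4 in hyperoxia. With both snoRNAs or the 5 control RNAs it held for 2 members in each, let-7d and let-7f in room air and let-7c and let-7g in hyperoxia. Among members, passenger strands, neighbours and miR-1961, the values of at least 2-fold that turned above 0 were, with U6, those of miR-98 (1.51 in room air, 0.012 in hyperoxia), let-7d (1.91), let-7e (1.18) and let-7f (1.23) in hyperoxia, miR-125a-5p (1.34 in room air and 0.25 in hyperoxia) and miR-125a-3p (1.90 in hyperoxia). With the library mean they were let-7d (0.19), let-7c-1* (0.31) and miR-125a-3p (0.17) in hyperoxia and miR-1961 (0.0303) in room air. With card medians they were miR-98 (0.0045) in room air and let-7d (0.60) and miR-125a-3p (0.58) in hyperoxia. Of the same assays, fitted age differences below 0 that became positive calls in limma with U6 were let-7a (2.40), let-7d (2.15), let-7e (1.67), let-7f (1.93), miR-125a-3p (2.12) and miR-99b (2.57), with card medians miR-99b (1.16), and with the library mean let-7a* (1.42). let-7b, let-7c, let-7g and let-7i, already above 0, also became calls with U6 and with card medians. The cause of these reversals was not tested. A Ct limit of 32 or none left every member's pairwise difference as it was, because all 9 members cross before cycle 32.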
